A study of Bos taurus with 27 samples.

Results

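The glutathione, peroxiredoxin, thioredoxin and dismutase genes are the enzymes and carrier proteins with which cells break down superoxide and peroxides and keep thiols reduced. Members were the non-control probes of the array whose gene name starts with GPX, GST, MGST, PRDX, TXN or GLRX, or with SOD and a digit, or is GSR, GSS or CAT. That rule took 61 of 15008 probes, which carry 59 of 14952 gene names, and the probe with the highest mean signal stood for each gene. The study followed 9 castrated, fistulated Japanese Black cattle through fattening on concentrate and rice straw, with a larger share of concentrate in the middle and late stages than in the early one, and took rumen epithelium (RE) by biopsy from each animal at 14 (early stage), 21 (middle stage) and 29 (late stage) months of age. Diet, age and time therefore changed together from stage to stage. RNA of each biopsy was hybridised to 1 single-colour Agilent array, giving 27 arrays, 9 per stage. The number that ends each sample title was taken as the animal throughout, which the titles themselves do not state. Following the study's names, middle against early is the first period, late against middle the second period and late against early the total period. The 3 periods share arrays, so their values are given side by side and are not independent of each other. A biopsy holds epithelium with other cells, so fewer cells of a type and less RNA per cell cannot be told apart.

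Superoxide is turned into hydrogen peroxide by the superoxide dismutases, and the peroxide is then removed by catalase, by the glutathione peroxidases and by the peroxiredoxins. Glutathione peroxidases draw electrons from glutathione, which glutathione reductase (GSR) recycles, while most peroxiredoxins draw them from thioredoxin, which the thioredoxin reductases recycle. Glutathione S-transferases join glutathione to reactive compounds, and the rumen epithelium, which takes up fermentation acids and oxidises a large share of them, is rich in mitochondria where peroxides form.

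Probes of 60 bases carry all the values below, and those of 4 members with large called changes are shown as the sequences behind these values. They lie on the bovine UMD_3.1 build (bosTau6), all on the plus strand as the scanner files give it. CAT lies at chr15:65801583-65801642, SOD2 at chr9:97404722-97404781, GPX4 at chr7:45206739-45206798 and GSTM3 at chr3:33770633-33770692. Capitals mark the whole codons of the only 1 of the 3 reading frames of each probe that holds no stop codon, 5′ to 3′.
CAT: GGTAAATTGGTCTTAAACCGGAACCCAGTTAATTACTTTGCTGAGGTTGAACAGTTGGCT
SOD2: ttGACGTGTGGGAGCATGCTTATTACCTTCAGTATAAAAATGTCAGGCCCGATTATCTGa
GPX4: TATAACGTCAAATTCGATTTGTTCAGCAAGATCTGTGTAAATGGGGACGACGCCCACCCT
GSTM3: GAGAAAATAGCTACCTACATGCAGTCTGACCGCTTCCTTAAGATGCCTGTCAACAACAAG
The G and C content of these 4 probes was 41.7%, 41.7%, 45% and 45%, and over the 59 members it ran from 35% to 60% (median 43.3%). The files place 58 of the 59 members on 26 chromosomes, with 7 members on chromosome 3 and 5 each on chromosomes 7, 17 and 23. Neighbours on chromosome 23 include GSTA2, GSTA3, GSTA4 and GSTA5, and GSTT1, GSTT3 and GSTT4 lie close together on chromosome 17. Genes of 1 such family are similar in sequence, so a probe of these families may also bind a relative. Each name rests on the annotation of the files, since probe sequences were not set against transcripts here. For 10 members (GLRX2, GPX1, GPX8, GSTZ1, PRDX3, TXNDC8, TXNDC15, TXNIP, TXNL4B and TXNRD3) the entry behind the probe was not in the gene table either, so that its identity could not be checked.

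The middle-stage arrays were dimmer than the others. The median processed signal of all probes per array ran from 34.5 to 47.5 (median 38.5) in the early stage, from 8.05 to 28.1 (median 16.4) in the middle stage and from 31.4 to 45.9 (median 38.7) in the late stage. No middle-stage array reached the signal of an early-stage or late-stage array. Of the 59 members, 50 to 52 per array were well above background in the early stage, 44 to 50 in the middle stage and 50 to 52 in the late stage. No member spot was saturated. A level below is the log2 processed signal minus the median of all probes on that array, so 0 is the array median, and a log2 fold change of 1 is a doubling. Levels are comparable between arrays for 1 probe and not between probes.

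**Figure D1:**
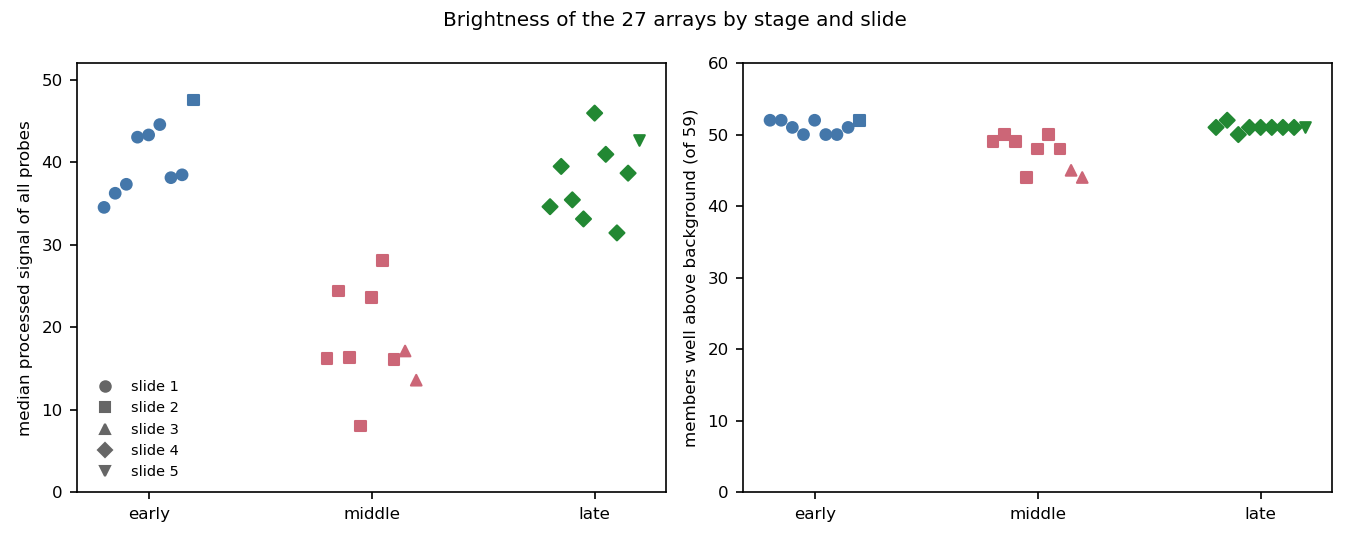
The left panel plots the median processed signal of all probes on each of the 27 arrays, and the right panel the number of the 59 members well above background, by stage on the x axis, with 1 symbol shape per slide. All 9 middle-stage arrays lie at or below a median signal of 28.1, while the early-stage array on the same slide as 7 of them lies at 47.5.

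The first period asks what changed as the animals went from the early to the middle diet and age. In it 15 of the 59 members rose and 21 fell with adjusted *P* < 0.05, where 45.3% of all probes rose and 21.3% fell (66.5% in either direction). Of the 15 that rose, 6 lacked a stage in which every array was well above background (SOD3, GSTA5, GSTZ1, GPX6, TXNDC3 and TXNDC8). In the bright set, the 43 members well above background on all 27 arrays, 8 rose and 18 fell, and among the 6797 such probes 34.9% rose and 26.9% fell (61.8% together). In the second period 31 members rose and 13 fell, against 27% and 44.6% of all probes (71.5% together). Of the 13 that fell, 7 had neither compared stage with every array well above background. Among the 43 bright members 27 rose and 6 fell, against 37.8% and 30.4% of the bright probes (68.2% together). In the total period 7 members rose and 1 fell, against 11.2% and 8.93% of all probes (20.1% together). The 1 that fell likewise had neither compared stage with every array well above background. Among the 43 bright members 6 rose and none fell, against 18% and 7.94% of the bright probes (25.9% together). These total-period counts moved with the fit. With slide as a random block none of the 43 was called, where 0.971% of the bright probes rose and 1.25% fell. By the paired test of the study's methods 13 rose and 1 fell, against 31.4% and 11% of the bright probes. A further 7 members (GPX3, GPX5, GPX8, GSTCD, GSTT4, TXNDC16 and TXNRD3) were measured, that is well above background on all 9 arrays of at least 1 stage, but not on all 27, and such a member can enter only through the stage where it is high, so the counts below are over the bright ones. A fold change of these 7 against a stage with arrays at background is not exact in size. The median log2 fold change of the 59 members was -0.20 in the first, 0.47 in the second and 0.14 in the total period. Over all probes it was 0.32, -0.27 and 0.034. Over the bright members it was -0.29, 0.62 and 0.18, and over the bright probes 0.076, 0.098 and 0.14.

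The median over all probes moved with the scaling. In the first period it was 0.39 with the 75th percentile, 0.088 with quantile normalization and 0.12 with normexp, and in the second period -0.46, -0.036 and -0.11 (array median 0.32 and -0.27). Over the total period it was 0.034 with the array median, -0.087 with the 75th percentile and -0.099 with the median of the bright probes. Of the 43 bright members 10 fell with no overlap between the stages in the first period and none rose in that way, and in the second period 10 rose and none fell. Among the bright probes 17.6% and 26.3% had no overlap, counting rises and falls together. The share in each direction was not computed, so the split of the members by direction has no like share beside it. Relative to the median over all probes the first-period change was -2.64 for CAT, -1.59 for SOD2, -1.75 for TXNL1, 0.41 for GSTP1, 0.10 for GSTO1 and 0.045 for TXNL4B. Relative to it the second-period change was 2.69 for CAT, 3.17 for GPX3, -0.45 for GSTP1 and -0.049 for GSTO1. Of the calls over all probes in the first period 68% were higher, against 51.3% with quantile normalization and 54.7% with the probes limited to measured ones. In the second period the share was 37.7%, against 51.3% and 49.4%, and in the total period 55.6%, against 34.1% with the 75th percentile, 31.5% with the median of the bright probes, 34.5% with the deposited log2 values and 67.2% with normexp. Sizes of single members below are read against these shifts. Values of all 9 cattle are summarised in full for 17 genes picked by a written rule, and the other measured members were named after their values had been seen so that all 50 appear.

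**Figure D2:**
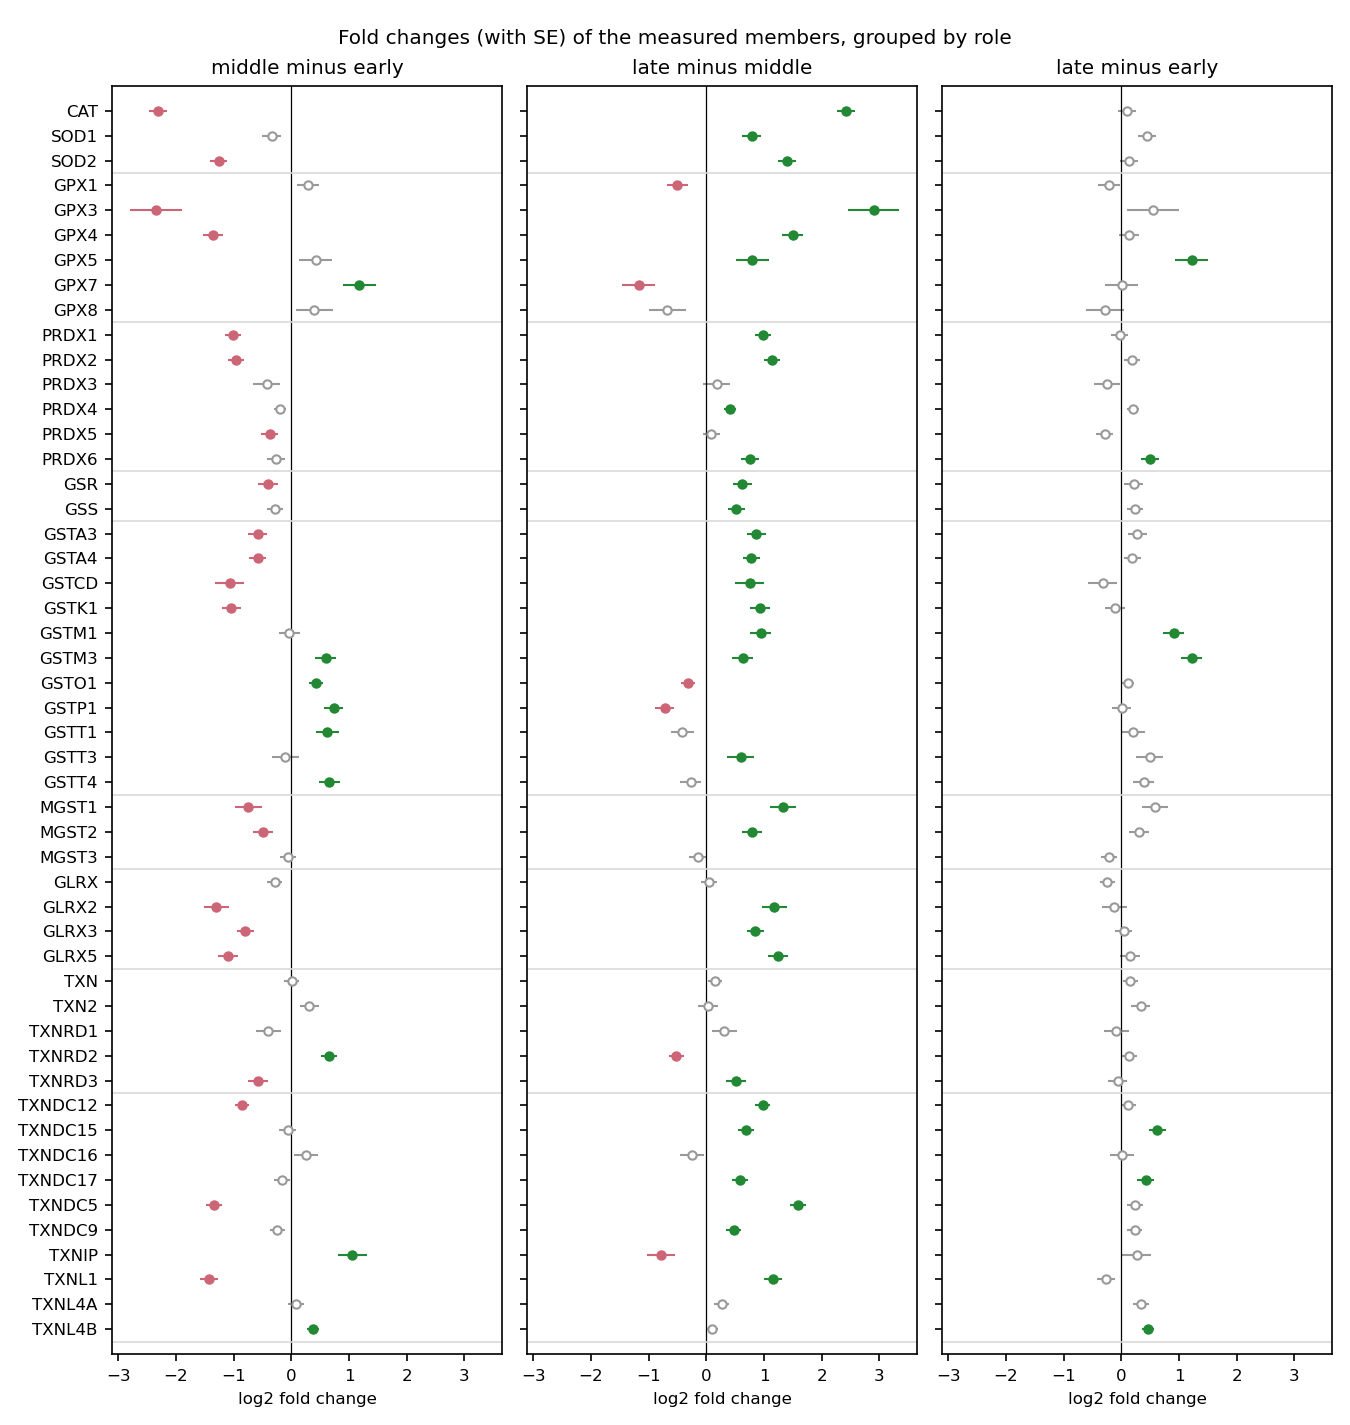
The x axis gives the log2 fold change and bars give its SE for the 50 members well above background on all 9 arrays of at least 1 stage, grouped by role, with 1 panel per period. Filled points passed adjusted *P* < 0.05, green for higher and red for lower, and open points did not, and most filled points lie left of 0 in the first panel and right of 0 in the second. GSTO1 and TXNL4B in the first panel and GPX1, GSTO1, GSTP1, MGST3 and TXNRD2 in the second turned sign with normexp, counting only those that passed with it or with the array median, and GPX5, above background on 1 middle-stage array, and TXNDC16, on 4, are plotted there without being read.

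Catalase and SOD2, the mitochondrial dismutase, fell in the first period and rose in the second in all 9 cattle, and neither passed the test over the total period. CAT levels ran from 1.62 to 2.54 (median 2.03) in the early stage, from -0.94 to 0.35 (median -0.35) in the middle stage and from 1.53 to 2.70 (median 2.08) in the late stage. All 9 middle-stage values lay below every early-stage and late-stage value. The log2 fold change of CAT was -2.31 ± 0.15 (SE), adjusted *P* = 2.52e-09 in the first period and 2.42 ± 0.15 (SE), adjusted *P* = 3.22e-10 in the second, and 0.10 (adjusted *P* = 0.704) in the total period. With normexp CAT gave -1.14 and 1.30 in the first and the second, smaller in size and both called. SOD2 levels ran from 4.75 to 5.62 (median 4.96) in the early stage, from 2.94 to 4.59 (median 3.95) in the middle stage and from 4.90 to 5.59 (median 5.20) in the late stage. Its middle-stage values also lay apart from both other stages. For SOD2 the log2 fold change was -1.26 ± 0.15 (SE), adjusted *P* = 1.93e-06 in the first period, 1.40 ± 0.15 (SE), adjusted *P* = 2.58e-07 in the second and 0.13 (adjusted *P* = 0.602) in the total period. The cytosolic dismutase SOD1 behaved less clearly. SOD1 levels ran from 5.55 to 6.54 (median 6.05) in the early stage, from 4.94 to 6.50 (median 5.73) in the middle stage and from 6.29 to 6.79 (median 6.47) in the late stage. The stages overlapped, with the lowest middle-stage value in animal 4 and the highest in animal 9. In the first period the log2 fold change of SOD1 was -0.34 ± 0.16 (SE), adjusted *P* = 0.0677, lower in 7 of 9 cattle, and in the second period SOD1 rose by 0.79 ± 0.16 (SE), adjusted *P* = 2.44e-04, in 8 of 9. Over the total period it was 0.45 ± 0.16 (SE), adjusted *P* = 0.0566, higher in 7 of 9 cattle, and without animal 4 or animal 9 it passed, at 0.51 and 0.44. Without animal 9 the first-period fall passed as well, at -0.47, and so it did with all cattle under normexp (-0.93) and quantile normalization (-0.38) and within the first scan day (-0.48). With slide as a random block the second-period rise of SOD1 did not pass (0.60). The first-period value of SOD1 was -0.18 in that fit and 0.50 with slide as a fixed block, and neither passed. The extracellular dismutase SOD3 was well above background on 1 of the 27 arrays. Its levels ran from -5.22 to -2.63 (median -4.62), -4.66 to -1.29 (median -3.18) and -5.32 to -3.97 (median -4.85) in the 3 stages, which are values near background, and no fold change is given.

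**Figure D3:**
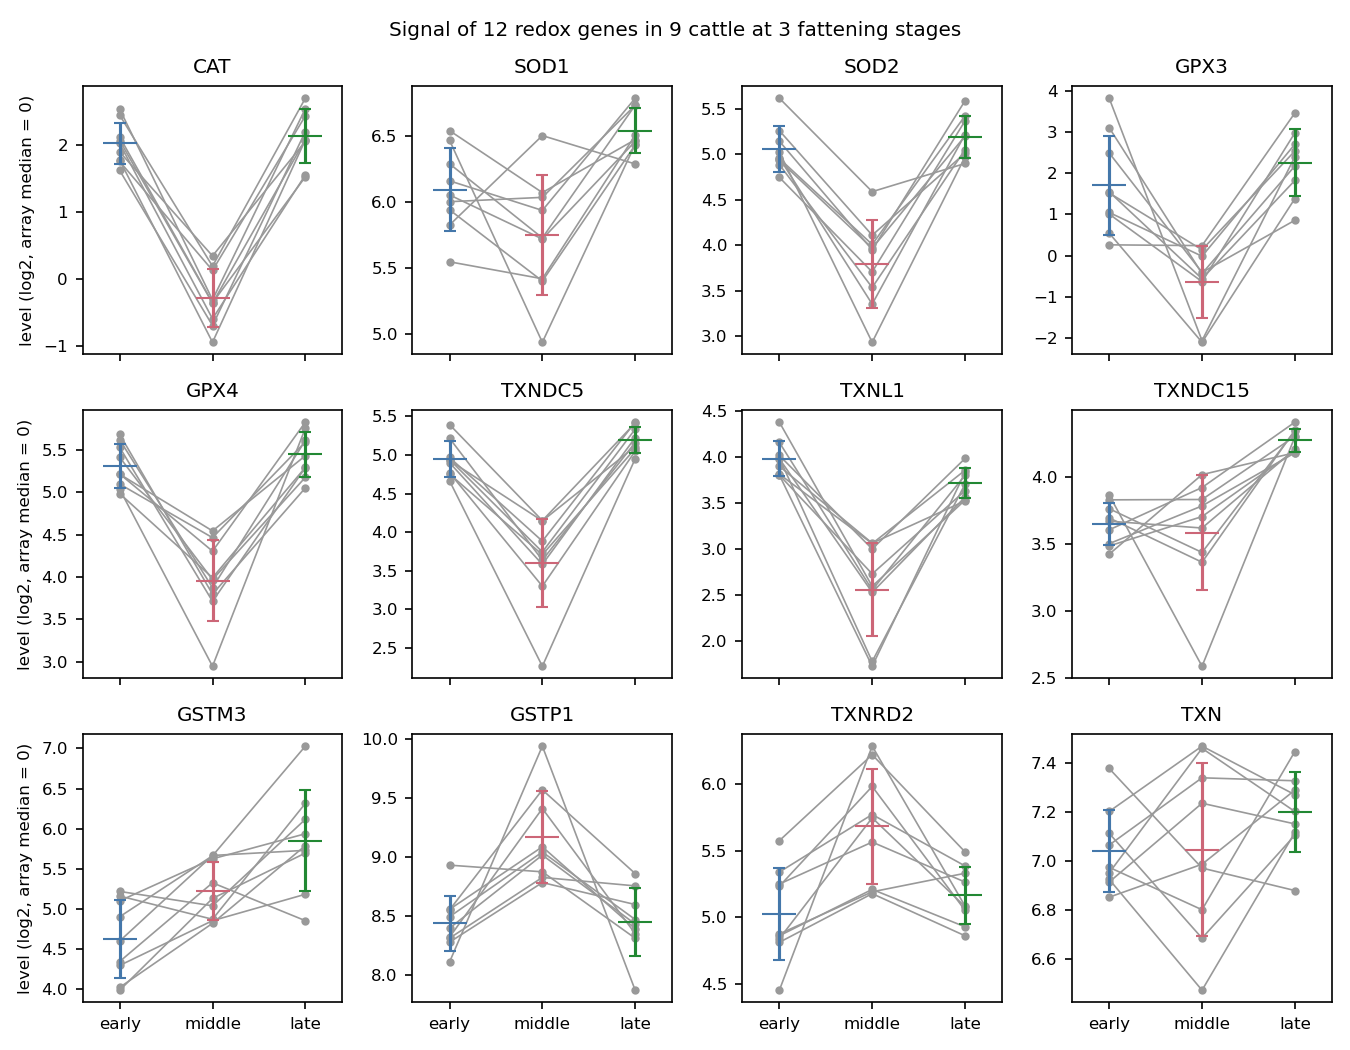
Each grey line is 1 of the 9 cattle across the 3 stages, the y axis is the level (log2, array median at 0), and coloured bars are the mean and SD of a stage. CAT, SOD2, GPX3, GPX4, TXNDC5 and TXNL1 form a trough in the middle stage, and TXNDC15 and GSTM3 are highest in the late stage. GSTP1 and TXNRD2 peak in the middle stage, and TXN passed no test with the array median. With normexp GSTP1 and TXNRD2 had no middle-stage peak, with second-period values of 0.093 and 0.29 that did not pass.

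Among the glutathione peroxidases, which reduce peroxides with glutathione, GPX3 and GPX4 fell and then rose. GPX3 is the secreted peroxidase found in plasma. GPX3 levels ran from 0.26 to 3.81 (median 1.52) in the early stage, from -2.10 to 0.24 (median -0.43) in the middle stage and from 0.86 to 3.46 (median 2.39) in the late stage. On the middle-stage arrays it was well above background in 7 of 9 cattle, and the middle stage lay apart from both others, by a narrow margin from the lowest early-stage value. Animals 1 and 9 marked the early-stage extremes. In the second period GPX3 rose by 2.90 ± 0.45 (SE), adjusted *P* = 1.45e-05, after a first-period change of -2.35 ± 0.45 (SE), adjusted *P* = 1.72e-04. Over the total period the GPX3 value was 0.55 ± 0.45 (SE), adjusted *P* = 0.431. The sizes moved with the setting: normexp gave -0.96 and 1.51, both called, and slide as a fixed block -6.35 in the first period. GPX4, which reduces lipid peroxides within membranes, had a log2 fold change of -1.36 ± 0.17 (SE), adjusted *P* = 3.92e-06 in the first period and of 1.49 ± 0.17 (SE), adjusted *P* = 6.06e-07 in the second. All 9 cattle fell and then rose for GPX4 with no overlap between middle and either other stage. GPX7, a peroxidase of the endoplasmic reticulum, went the other way, with 1.18 ± 0.28 (SE), adjusted *P* = 0.00136 in the first period, higher in 8 of 9 cattle, and -1.17 ± 0.28 (SE), adjusted *P* = 0.00114 in the second. GPX1 levels ran from 2.27 to 3.00 (median 2.67) in the early stage, from 2.06 to 4.15 (median 2.91) in the middle stage and from 2.11 to 2.77 (median 2.39) in the late stage. The stages overlapped, and animal 9 had the highest middle-stage value. The GPX1 probe came from an entry that the gene table did not hold and the strand it reads could not be checked, so its values may not be those of GPX1 mRNA. GPX1 did not pass in the first period (0.28 ± 0.19 (SE), adjusted *P* = 0.188), fell in the second (-0.50 ± 0.19 (SE), adjusted *P* = 0.0232) in 8 of 9 cattle except with normexp, where the value was 0.13, and was -0.22 in the total period (adjusted *P* = 0.473). Without animal 8 or 9 the second-period fall of GPX1 did not pass, at -0.39 and -0.35. GPX5, known from the epididymis, was well above background on 6, 1 and 9 arrays of the early, middle and late stages. It passed the total-period test upward with the array median and not with normexp, and no size is given. With 1 middle-stage array above background, no change of GPX5 against that stage is read. GPX8, a membrane protein of the endoplasmic reticulum, was measured on 9, 5 and 8 arrays and passed in no period with the array median, with 0.40 in the first period, where it passed without animal 4 (0.68).

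The peroxiredoxins, peroxidases that work through a reactive cysteine, had 3 of 6 members fall in the first period and 4 of 6 rise in the second, where 26.9% of the bright probes fell and 37.8% rose. PRDX1 and PRDX2, the cytosolic forms, moved most, by -1.01 ± 0.14 (SE), adjusted *P* = 1.12e-05 and -0.96 ± 0.14 (SE), adjusted *P* = 1.24e-05 in the first period. In the second period PRDX1 rose by 0.98 and PRDX2 by 1.14, each in all 9 cattle. PRDX5 fell in the first period (-0.38 ± 0.15 (SE), adjusted *P* = 0.0328), in 7 of 9 cattle, and with slide as a fixed block its value was 0.067. That fall did not pass without animal 1, 2, 3, 4 or 7, with values of -0.35 to -0.29. Over the total period PRDX5 was -0.29 and passed with the 75th percentile (-0.41) and with quantile normalization (-0.47). PRDX3, a mitochondrial form, gave -0.43 in the first, 0.18 in the second and -0.25 in the total period and passed in none, and its probe, placed on chromosome 8, may not be that of PRDX3 mRNA, since the gene table did not hold its entry. PRDX4, the form of the endoplasmic reticulum, rose in the second period in all 9 cattle (0.41 ± 0.10 (SE), adjusted *P* = 0.00163), and its total-period value was 0.20 (adjusted *P* = 0.175). PRDX6, which reduces phospholipid peroxides, rose in the second (0.76 ± 0.15 (SE), adjusted *P* = 2.19e-04) and total periods (0.50 ± 0.15 (SE), adjusted *P* = 0.0265), the latter in 8 of 9 cattle. The total-period rise of PRDX6 did not pass with the 75th percentile (0.38), with quantile normalization (0.36), with normexp (0.71) or without animal 1, 5, 6 or 8 (0.42 to 0.50).

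GSR, the reductase that recycles glutathione, was missing on 1 middle-stage array as an outlier spot. GSR levels ran from 8.18 to 9.09 (median 8.76) in the early stage, from 7.59 to 9.16 (median 8.35) in the middle stage and from 8.74 to 9.43 (median 8.87) in the late stage. The early and middle ranges overlapped widely. GSR fell in the first period (-0.41 ± 0.17 (SE), adjusted *P* = 0.0386), in 7 of 8 cattle, and rose in the second (0.62 ± 0.17 (SE), adjusted *P* = 0.00276), in 6 of 8. Leaving out animal 2, 3, 4, 5, 6 or 7 ended the first-period call, with values of -0.44 to -0.31. It did not pass with the 75th percentile either (-0.35). GSS, which joins glycine in the last step of glutathione synthesis, gave -0.29 (adjusted *P* = 0.0805) in the first period and rose by 0.52 (adjusted *P* = 0.00292) in the second, in all 9 cattle. Without animal 7 or 9 its first-period fall passed, at -0.36 and -0.36.

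The glutathione S-transferases with GST names took several courses. Of 9 bright ones 4 rose and 3 fell in the first period, near the 34.9% and 26.9% of the bright probes, and 6 rose and 2 fell in the second, against 37.8% and 30.4%. Calls down and then up were made for GSTA3, GSTA4 and GSTK1 and for GSTCD, and calls up and then down for GSTO1 and GSTP1, though not with normexp. Between the first and the second period, GSTT1 and GSTT4 were called up in the first alone, GSTM3 in both, and GSTM1 and GSTT3 in the second alone. GSTM1 and GSTM3 were also called up over the total period. GSTK1, a mitochondrial and peroxisomal transferase, fell by 1.04 ± 0.17 (SE), adjusted *P* = 4.04e-05 and then rose by 0.93 ± 0.17 (SE), adjusted *P* = 7.77e-05, in all 9 cattle each time. GSTCD, measured on 8 of 9 middle-stage arrays, fell by 1.07 ± 0.25 (SE), adjusted *P* = 9.85e-04, in all 9 cattle, and rose by 0.75 (adjusted *P* = 0.0111). The alpha class members GSTA3 and GSTA4 had log2 fold changes of -0.59 (adjusted *P* = 0.00412) and -0.58 (adjusted *P* = 0.002) in the first period, each lower in 8 of 9 cattle, and rose by 0.86 and 0.78 in the second, and with slide as a fixed block their first-period values were 0.36 and 0.058. Within slide 2 the value of GSTA4 was 0.10. The gene name GSTA3 had a pair of probes, and the brighter one, used here, belongs to the transcript now called GSTA1, while the other passed in no period and the mean of both gave -0.064 and 0.31, neither of which passed. The GSTP1 probe belongs to a transcript that the gene table now lists under a locus number, as does that of GSTM1, and the GSTT3 probe belongs to the transcript now called GSTT2.

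GSTP1, the pi class enzyme of many epithelia, was highest in the middle stage with the array median. GSTP1 levels ran from 8.11 to 8.93 (median 8.40) in the early stage, from 8.79 to 9.94 (median 9.04) in the middle stage and from 7.87 to 8.86 (median 8.43) in the late stage. The middle-stage values overlapped both others. GSTP1 rose in the first period (0.73 ± 0.16 (SE), adjusted *P* = 7.52e-04), in 8 of 9 cattle, and fell in the second in all 9 (-0.72 ± 0.16 (SE), adjusted *P* = 6.55e-04), but with normexp the second-period value was 0.093 and the first-period rise, at 0.19, did not pass. GSTO1, an omega class enzyme that also reduces dehydroascorbate, rose in the first period in all 9 cattle, except with normexp. GSTO1 levels ran from 8.16 to 8.86 (median 8.50) in the early stage, from 8.31 to 9.26 (median 8.98) in the middle stage and from 8.23 to 8.85 (median 8.68) in the late stage. The stages overlapped in each pair. For GSTO1 the first-period change was 0.43 ± 0.12 (SE), adjusted *P* = 0.00334 and the second-period change -0.32 ± 0.12 (SE), adjusted *P* = 0.0189, the latter in 8 of 9 cattle, while normexp gave -0.083 and 0.43. The second-period fall did not pass without animal 7 or 9 (-0.27 and -0.27). GSTT1 rose by 0.62 (adjusted *P* = 0.00844) and GSTT4 by 0.66 (adjusted *P* = 0.0038) in the first period, each in 7 of 9 cattle, and GSTT4, measured on 5 of 9 middle-stage arrays, was -1.09 with slide as a fixed block. GSTT3 rose in the second period by 0.60 (adjusted *P* = 0.028), in 7 of 9 cattle, a call that ended with the 75th percentile and quantile scalings and without animal 1, 2, 4, 8 or 9 (0.42 to 0.60). The second-period value of GSTT1 was -0.41 and passed without animal 1, 2, 3 or 4 (-0.51 to -0.48), and that of GSTT4 was -0.27 and passed without animal 9 (-0.43).

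The mu class members GSTM1 and GSTM3 were higher in the late stage than in the early one with the array median. GSTM3 levels ran from 3.99 to 5.22 (median 4.60) in the early stage, from 4.82 to 5.67 (median 5.13) in the middle stage and from 4.86 to 7.03 (median 5.79) in the late stage. Animal 1 had the highest and animal 9 the lowest late-stage value, and the early and late ranges overlapped. GSTM3 rose in the first (0.60 ± 0.18 (SE), adjusted *P* = 0.0083), second (0.63 ± 0.18 (SE), adjusted *P* = 0.00505) and total periods (1.22 ± 0.18 (SE), adjusted *P* = 1.14e-04), the last in all 9 cattle and the largest total-period rise of the bright members. With normexp the first-period rise of GSTM3, at 0.062, did not pass, and with slide as a random block none of the 3 did (0.59, 0.46 and 1.05). GSTM1 rose in the second period in all 9 cattle (0.94 ± 0.18 (SE), adjusted *P* = 1.31e-04) and in the total period in 8 of 9 (0.91 ± 0.18 (SE), adjusted *P* = 0.00145). With slide as a random block the total-period rise of GSTM1 did not pass. A further GSTM1 probe was well above background on 1 array, and the mean of both probes gave 0.77 in the first, -0.70 in the second and 0.075 in the total period, the last of which did not pass. Of the microsomal transferases, membrane-bound enzymes of glutathione conjugation, MGST1 fell in the first period (-0.74 ± 0.23 (SE), adjusted *P* = 0.00756) and rose in the second (1.32 ± 0.23 (SE), adjusted *P* = 4.34e-05), each in 8 of 9 cattle. MGST2 fell by 0.49 (adjusted *P* = 0.0162) and rose by 0.80 (adjusted *P* = 3.76e-04), and with slide as a fixed block its first-period value was 1.08. The first-period fall of MGST2 did not pass without animal 4 or 8 (-0.37 and -0.43), and the total-period value of MGST1, 0.58, passed without animal 4 (0.56). MGST3 gave -0.059, -0.15 and -0.21 in the 3 periods and passed in none with the array median, while with normexp it rose in the second period (0.71).

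The glutaredoxins, small proteins that undo mixed disulfides with glutathione, had 3 of 4 members fall in the first period, all but the cytosolic GLRX, where 26.9% of the bright probes fell. GLRX2 and GLRX5, the mitochondrial members, had log2 fold changes of -1.30 ± 0.22 (SE), adjusted *P* = 4.94e-05 and -1.10 ± 0.17 (SE), adjusted *P* = 2.87e-05, lower in all 9 cattle with no overlap between early and middle. GLRX3, which carries iron-sulfur clusters in the cytosol, fell by 0.80 ± 0.15 (SE), adjusted *P* = 1.18e-04, in 8 of 9 cattle. The GLRX2 probe came from an entry that the gene table did not hold, so its values may not be those of GLRX2 mRNA. In the second period these 3 genes rose by 1.18, 1.25 and 0.85. GLRX was lower in all 9 cattle in the first period but did not pass (-0.29 ± 0.13 (SE), adjusted *P* = 0.0581), though it did without animal 9 (-0.33). Over the total period none of the 4 passed with the array median, while with the 75th percentile and with quantile normalization GLRX fell (-0.36 and -0.41).

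Thioredoxin itself showed no called change with the array median, while with normexp it rose in the second period by 0.87 (adjusted *P* = 0.00851). TXN levels ran from 6.85 to 7.38 (median 6.98) in the early stage, from 6.47 to 7.47 (median 6.99) in the middle stage and from 6.88 to 7.45 (median 7.20) in the late stage. The stages overlapped, and with the array median no period passed, with 0.005 ± 0.12 (SE), adjusted *P* = 0.973 in the first, 0.15 ± 0.12 (SE), adjusted *P* = 0.28 in the second and 0.16 ± 0.12 (SE), adjusted *P* = 0.422 in the total period. TXN2, the mitochondrial thioredoxin, gave 0.31 in the first period (adjusted *P* = 0.109) and passed without animal 2 (0.41) and with the 75th percentile (0.37). TXNRD1 levels ran from 1.67 to 2.66 (median 2.22) in the early stage, from 0.77 to 3.19 (median 1.93) in the middle stage and from 1.68 to 2.56 (median 2.18) in the late stage. TXNRD1, the cytosolic reductase, spread most among cattle in the middle stage, where the ranges overlapped those of both other stages. The TXNRD1 change was -0.40 ± 0.22 (SE), adjusted *P* = 0.109 in the first period, 0.31 ± 0.22 (SE), adjusted *P* = 0.203 in the second and -0.09 ± 0.22 (SE), adjusted *P* = 0.835 in the total period. Without animal 4 its first-period and second-period values passed, at -0.59 and 0.48, and with normexp both passed with all cattle, at -0.52 and 0.56. TXNRD2 levels ran from 4.45 to 5.57 (median 4.88) in the early stage, from 5.18 to 6.28 (median 5.74) in the middle stage and from 4.86 to 5.49 (median 5.08) in the late stage. TXNRD2, the mitochondrial reductase, was higher in the middle stage than in the early one in all 9 cattle and than in the late one in 8 of 9, with overlapping ranges. TXNRD2 rose in the first period (0.65 ± 0.14 (SE), adjusted *P* = 4.55e-04) and fell in the second (-0.52 ± 0.14 (SE), adjusted *P* = 0.00255), but with normexp the second-period value was 0.29 and the first-period rise, at 0.067, did not pass. TXNRD3, measured on 6 of 9 middle-stage arrays, fell in the first period (-0.58 ± 0.17 (SE), adjusted *P* = 0.00518), in all 9 cattle, and rose in the second (0.52 ± 0.17 (SE), adjusted *P* = 0.00957), and within slide 2 its first-period value was 0.28 and within the first scan day -0.38, which did not pass. With the 75th percentile the second-period rise of TXNRD3, at 0.33, did not pass, and with normexp neither change did.

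Of 9 bright thioredoxin-like proteins, 3 fell and 2 rose in the first period, where 26.9% of the bright probes fell and 34.9% rose, and 6 rose and 1 fell in the second, where 37.8% rose and 30.4% fell. TXNL1, a thioredoxin-like protein of the proteasome, and TXNDC5, a disulfide isomerase of the endoplasmic reticulum, had deep troughs. TXNL1 levels ran from 3.81 to 4.38 (median 3.98) in the early stage, from 1.73 to 3.07 (median 2.60) in the middle stage and from 3.52 to 3.99 (median 3.71) in the late stage. Every middle-stage value lay below every other value. TXNL1 fell by 1.42 ± 0.16 (SE), adjusted *P* = 7.74e-07 and rose by 1.15 ± 0.16 (SE), adjusted *P* = 3.74e-06. TXNDC5 levels ran from 4.66 to 5.39 (median 4.93) in the early stage, from 2.26 to 4.15 (median 3.71) in the middle stage and from 4.95 to 5.42 (median 5.16) in the late stage. Its middle-stage values were also apart, with animal 4 lowest. TXNDC5 fell by 1.35 ± 0.14 (SE), adjusted *P* = 3.33e-07 and rose by 1.59 ± 0.14 (SE), adjusted *P* = 1.55e-08. TXNDC12, a further endoplasmic reticulum protein, fell by 0.86 ± 0.13 (SE), adjusted *P* = 1.79e-05 and rose by 0.98 (adjusted *P* = 2.22e-06), in all 9 cattle each time. TXNIP, the inhibitor of thioredoxin that also limits glucose uptake, rose in the first period (1.06 ± 0.25 (SE), adjusted *P* = 0.00104), in 8 of 9 cattle, and fell in the second (-0.79 ± 0.25 (SE), adjusted *P* = 0.00753), in 7 of 9. With normexp neither change of TXNIP passed (0.29 and -0.036).

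TXNDC15 and TXNL4B stood higher in the late stage than in the early one. TXNDC15 levels ran from 3.42 to 3.86 (median 3.67) in the early stage, from 2.59 to 4.02 (median 3.70) in the middle stage and from 4.18 to 4.41 (median 4.30) in the late stage. The late stage lay above all early and middle values. TXNDC15 gave -0.064 ± 0.14 (SE), adjusted *P* = 0.709 in the first period and rose in the second (0.69 ± 0.14 (SE), adjusted *P* = 3.22e-04) and total periods (0.63 ± 0.14 (SE), adjusted *P* = 0.00475), in all 9 cattle each time. With normexp its total-period rise, at 0.74, did not pass, and with slide as a random block neither rise did (0.59 and 0.64). TXNL4B levels ran from 3.03 to 3.33 (median 3.14) in the early stage, from 3.03 to 3.86 (median 3.43) in the middle stage and from 3.30 to 3.87 (median 3.59) in the late stage. Late-stage and early-stage values overlapped slightly. TXNL4B, a splicing-related protein, rose in the first period (0.37 ± 0.10 (SE), adjusted *P* = 0.00462), where normexp gave -0.18, and in the total period (0.47 ± 0.10 (SE), adjusted *P* = 0.00369), in all 9 cattle. With slide as a random block neither of these rises of TXNL4B passed, at 0.38 and 0.54. In the second period its value was 0.10 ± 0.10 (SE), adjusted *P* = 0.405, where normexp gave a rise of 0.75 (adjusted *P* = 0.0024), and with normexp the total-period rise, at 0.57, did not pass. TXNDC17, a thioredoxin-related protein of the cytosol, rose in the second (0.58 ± 0.14 (SE), adjusted *P* = 0.00114) and total periods (0.42 ± 0.14 (SE), adjusted *P* = 0.0395), the latter in all 9 cattle, and the total-period rise did not pass with the 75th percentile (0.30), quantile normalization (0.22) or normexp (0.70), or without any 1 of animals 1, 2, 3, 5, 6, 7 and 8 (0.38 to 0.46). TXNDC9 rose in the second period by 0.47 in all 9 cattle. TXNL4A, a spliceosome protein, gave 0.077, 0.27 and 0.34 in the 3 periods and passed in none with the array median, though its second-period value passed without animal 9 (0.36). TXNDC16, measured on 4 of 9 middle-stage arrays, passed in no period with the array median, and no size is given.

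For 9 members no stage had the probe clear of background in all its arrays. GPX6, GSTA5 and TXNDC8 were well above background on none of the 27 arrays. GSTO2, GSTZ1 and TXNDC3 reached it on 1 early-stage array only and, like SOD3, on no array of another stage. GSTA2 reached it on 2, 3 and 2 arrays of the early, middle and late stages, and TXNDC11 on 7, 1 and 8. For these genes no fold change is given.

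A list of 52 other genes of the pathway held, among others, those of glutathione synthesis, breakdown and cysteine supply, glyoxalases, sulfiredoxin and sestrins, methionine sulfoxide reductases, copper carriers, NADPH-forming enzymes, and selenoproteins with their factors, and the array held 47 of them. In the first period 6 of the 47 rose and 21 fell, in the second 28 rose and 7 fell, and in the total period 8 rose and 3 fell, where 45.3% and 21.3%, 27% and 44.6%, and 11.2% and 8.93% of all probes rose and fell. Among the 36 bright ones 4 rose and 14 fell in the first period, 21 rose and 4 fell in the second and 8 rose and 2 fell in the total period, against 34.9% and 26.9%, 37.8% and 30.4%, and 18% and 7.94% of the bright probes. IDH1, which makes cytosolic NADPH, had a log2 fold change of -1.56 and rose by 1.80. TALDO1 of the pentose phosphate pathway had -1.47 and rose by 1.42, and the same NADPH-forming pathway's PGD gave 0.19 and 0.15 without passing. NNT, the mitochondrial transhydrogenase, rose by 1.52 and then fell, with -1.54. For glutathione synthesis, GCLM, the modifier subunit of the limiting enzyme, rose by 0.66 in the second and 0.52 in the total period. GCLC, its catalytic subunit, was called lower in both of these periods, but it was well above background on 7 middle-stage and 8 late-stage arrays and no size is given. These genes were picked as examples after their values had been seen.

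Markers of other cells were read beside these results, with the summed signal of each list on an array (array median at 1) given as lowest to highest and median. Counts over a whole list include probes at background and stand beside 45.3% rising and 21.3% falling over all probes in the first period and 27% and 44.6% in the second, and counts over the bright ones beside 34.9% and 26.9%, and 37.8% and 30.4%. Of 14 stratified epithelium markers on the array 9 were well above background on all 27 arrays, KRT5, KRT14 and TP63 among them, and KRT4 on none. In the first period 4 of the 14 rose and 5 fell and in the second 4 rose and 5 fell, while of the 9 bright ones 2 rose and 5 fell and then 3 rose and 2 fell. Of these 9, with the first period before the second, 5 were called in both, with -1.99 and 2.58 for IVL, -1.28 and 1.63 for KRT6A and -0.51 and 0.80 for DSP and, the other way, 0.48 and -0.42 for S100A8 and 0.45 and -0.43 for DSG3. KRT14 (-1.12 and 0.054) and KRT5 (-0.56 and 0.11) passed in the first and not in the second, and TP63 (0.11 and -0.11) and KRT15 (-0.0021 and -0.27) in neither. Over the total period KRT14 was lower (-1.07), IVL was higher (0.59) and 7 did not pass, where 18% of the bright probes rose and 7.94% fell. Among the bright markers of the other cells given below, 1 red blood cell and 1 fibroblast marker rose over the total period. In the same period 1 leukocyte and 1 fibroblast marker fell. The sum of the 14 ran from 4610 to 6721 (6000) in the early, 3073 to 7041 (5290) in the middle and 5944 to 7287 (6342) in the late stage, led by S100A8. Smooth muscle markers rose in 4 of 7 genes in the first period and fell in 6 of 7 in the second (2 and 3 of 3 bright ones), with sums of 116 to 401 (178), 103 to 888 (327) and 129 to 220 (147) in the 3 stages, led by ACTA2. Red blood cell markers rose in 8 of 12 genes in the first period and fell in 7 of 12 in the second (2 and 1 of 3 bright ones), with sums of 977 to 1621 (1315), 765 to 4056 (1540) and 772 to 1723 (1274), led by CA1, while EPB42 was above background on no array. Leukocyte markers rose in 7 and fell in 2 of 18 genes in the first period and rose in 4 and fell in 9 in the second, while of 7 bright ones 1 rose and 1 fell and then 2 rose and 2 fell, with sums of 53.5 to 109 (68.4), 57.2 to 83.5 (73.3) and 61.0 to 95.5 (78.4), led by CSF1R, while CD4 and ITGAM were above background on no array. Fibroblast markers rose in 2 and fell in 2 of 8 genes in the first period and rose in 2 and fell in 4 in the second, while of 5 bright ones 1 rose and 1 fell and then 1 rose and 3 fell, with sums of 88.0 to 752 (278), 89.9 to 1023 (458) and 71.1 to 405 (288), led by COL1A2. Endothelium markers rose in 3 and fell in 1 of 8 genes in the first period and fell in 3 in the second (2 rising and then 2 falling of 5 bright ones), with sums of 39.1 to 76.5 (56.0), 49.6 to 109 (72.1) and 51.8 to 83.2 (59.7), led by CLDN5, while CDH5 was above background on no array. The part of these cells in the members' changes was not tested.

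Slides and scan days could be set against the first period in part, since 1 slide held the early-stage array of animal 9 with 7 middle-stage arrays and its scan day held all 9 early-stage arrays. Within that slide, stage alone gave -2.33 for CAT, -1.96 for SOD2, -4.35 for GPX3, -1.32 for TXNL1, -1.48 for TXNDC5, 0.98 for GSTP1, 0.87 for GSTM3, 0.65 for GSTO1, 1.06 for TXNRD2, -0.80 for GSR and 0.48 for TXNL4B, with 1 early-stage array and no member passing. Within the scan day the same genes gave -2.46, -1.41, -2.24, -1.31, -1.50, 0.65, 0.59, 0.38, 0.49, -0.53 and 0.45. Of all 59 members 12 rose and 21 fell there, where 5796 of 15008 probes rose and 2938 fell. Among the 43 bright members 8 rose and 19 fell there, against 29.5% and 25.3% of the bright probes. With slide as a fixed block they gave -2.11, -1.29, -6.35, -1.94, -1.12, 1.80, 0.53, 0.48, 1.58, -1.03 and 0.88. Of these CAT, GPX3, GSTP1 and TXNRD2 passed, and so did GPX4 (-2.49), so that 2 members rose and 3 fell, against 4.87% and 0.662% of the bright probes, of which GPX3 is not one. That fit separates slide from stage only through animals 8 and 9, whose middle-stage arrays sat on a slide of their own. In the second and total periods the late stage shared no slide or scan day with another stage, so slide and stage cannot be told apart there. A random block does not separate them, since it only takes arrays of a slide as correlated.

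With slide as a random block 11 of all 59 members rose and 14 fell in the first period, where 4914 of 15008 probes rose and 1919 fell. In the second 20 members rose and 10 fell, where 2424 probes rose and 5088 fell. Among the 43 bright members 5 rose and 12 fell in the first period, against 27.3% and 14.6% of the bright probes, and 18 rose and 3 fell in the second, against 22.0% for each. First-period calls of GSTA3, GSTA4, GSTT1, GSTT4, MGST1, MGST2, PRDX5 and TXNRD3 ended there, and those of GSR, GSTM3 and TXNL4B too, with -0.39, 0.59 and 0.38. In the total period that fit in limma called none of the members, and over all probes it called 250, with 1833 at an unadjusted *P* < 0.05. CAT rose by 2.27 in the second period, SOD2 by 1.25, GPX3 by 3.30 and TXNDC5 by 1.47, while GSTP1 gave -0.95, and these 5 passed. GPX7, GSS, GSTCD, GSTT3, MGST2, TXNDC9, TXNDC17 and TXNIP did not pass there in the second period. Nor did SOD1, GSR, GSTM3, GSTO1 and TXNDC15, with 0.60, 0.49, 0.46, -0.40 and 0.59. For the total period GSTM3 gave 1.05, TXNDC15 0.64 and TXNL4B 0.54, and none of the 3 passed.

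**Figure D4:**
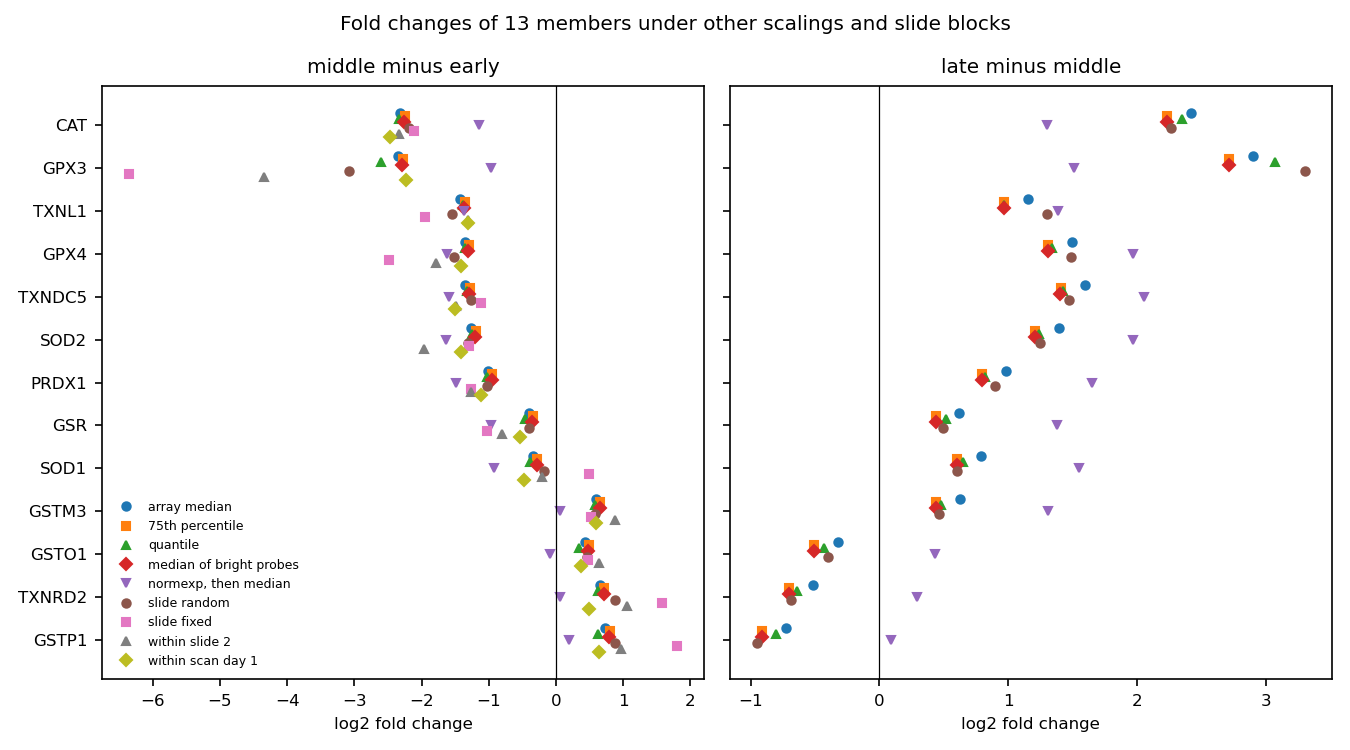
The x axis gives the log2 fold change of 13 members in the first (left) and second (right) period, and each symbol is 1 scaling or slide setting, with slide as a fixed block, slide 2 and the scan day only in the first period. CAT lies left of 0 under every setting shown in the first period and right of 0 in the second, while with normexp GSTO1 turns sign in both periods and GSTP1 and TXNRD2 in the second, and SOD1, not called in the first period, lies right of 0 there with slide as a fixed block.

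Normexp moved more calls than the other scalings. With it the bright probes had a median of -0.29 in the first period and of 0.55 in the second, where the array median gave 0.076 and 0.098. Of the 43 bright members 1 rose and 27 fell in the first period, against 11% and 37.6% of the bright probes, and 35 rose and 1 fell in the second, against 58.7% and 11.4%. Beside SOD1 and TXNRD1, first-period falls that passed with normexp and not with the array median were those of GLRX (-0.91), GSS (-0.73), MGST3 (-0.68), PRDX4 (-0.72), PRDX6 (-0.89), TXNDC9 (-0.48) and TXNDC17 (-0.78), while GPX8 (0.28) rose and the rise of GSTT1 (0.093) did not pass. Second-period rises with it were those of GLRX (0.86), PRDX5 (0.83), TXN2 (0.83) and TXNL4A (1.04), beside TXN, TXNL4B, TXNRD1 and MGST3. Beside the smaller changes of CAT and GPX3, normexp gave first-period values of -1.64 for SOD2, -1.62 for GPX4, -1.37 for TXNL1 and -1.59 for TXNDC5. Of the 7 total-period rises, those of GSTM1 and GSTM3 passed with normexp.

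Other scalings and fits also moved members. With the 75th percentile the second-period falls of GSTT1 (-0.60), GSTT4 (-0.45) and MGST3 (-0.34) passed. Quantile normalization called GLRX (-0.33) and MGST3 (-0.35) lower in the first period, GSTT1 (-0.56) in the second and MGST3 (-0.32) in the total period, and the first-period value of GSTT4, at 0.37, did not pass. Within the first scan day GSTT4 gave 1.08 and did not pass. Without the animal block the first-period value of GSTT4 (adjusted *P* = 0.408) and the second-period rise of GSS (adjusted *P* = 0.0669) did not pass. By the paired test of the study's methods the calls of GSR, MGST2 and PRDX5 in the first period and of GPX1, GSTCD, GSTT3 and TXNRD3 in the second ended, GLRX fell in the first period, and in the total period PRDX5 fell and GSTT4, MGST1, MGST2, PRDX4, SOD1, TXNDC5, TXNDC9 and TXNL4A rose, where over all probes that test called 2835 higher and 1691 lower, against 1679 and 1340. Without the 2 middle-stage arrays of the next scan day, a setting chosen after seeing the data, GLRX (-0.37), GSS (-0.41) and SOD1 (-0.49) fell in the first period, PRDX5 (0.28) and TXNL4A (0.43) rose in the second, and the second-period calls of GPX1 (-0.19), GSTO1 (-0.24) and GSTT3 (0.40) ended, while GSTT4, MGST1, SOD1 and TXNL4A rose over the total period, where 2126 of all probes were called higher, against 1679. With the 7 cattle paired on the first scan day, also chosen after seeing the data, GLRX (-0.37) and SOD1 (-0.50) fell in the first period, and GSR (-0.47), GSTM3 (0.46), GSTO1 (0.35) and GSTT1 (0.48) did not pass.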

How the data were processed

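RNA of 27 RE biopsies was measured on 27 custom bovine arrays of 1 colour. The extraction label of the deposited samples names neutrophils and liver tissue. Sample titles name rumen epithelium, so that label was taken as left over from another protocol. Agilent Feature Extraction (11.0.1.1 per the file headers, 9.5 per the processing notes) was used by the authors to subtract local background and obtain the intensity of each spot, deposited as a linear processed signal. The same deposited output gives other values of 0 or 1 per spot, the software's calls of well above background, saturated and outlier. The authors also deposited log2 values, which equalled the log2 processed signal minus the 75th percentile of each array to within 0.0207 and were used as an alternative.

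Spots of the same probe were averaged, outlier spots were left missing, and the median log2 signal of the 15008 non-control probes was subtracted per array. R 4.3.3 with limma 3.58.1 fitted stage with a fixed effect of animal, with Benjamini-Hochberg adjustment of each comparison over 15008 probes and 0.05 as the threshold. Animals, taken from the title numbers, paired the arrays. Deviations of the 6797 bright probes from the stage means correlated by 0.23 on average between 2 arrays of the same animal (above 0 in 23 of 27 pairs). Between different cattle the correlation was -0.028 on average, a description across probes without a test. The fit was tested on simulated data with changes of known size put into the middle stage alone, most but not all of which it called, and the calls below do not rest on that test. Accessions of 50 of the 61 member probes were found in the gene table.

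Values were given in full for SOD1, SOD2, SOD3, CAT, GPX1, GSR, TXN and TXNRD1 and, per comparison, for up to 3 largest rises and 3 largest falls among members with an adjusted *P* below 0.05, the same direction in all 9 cattle and a probe clear of background throughout at least 1 of the compared stages. Members and lists were chosen with earlier results of these data known. Alternatives were 75th percentile scaling, quantile normalization, the median of the 6797 bright probes (well above background on each of the 27 arrays), normexp with an offset of 50, a filter on dim probes, kept outlier spots, the deposited log2 values, no animal block, slide as a random (statmod 1.5.0) or fixed block, slide 2 or the first scan day alone, the paired test of the study's methods, the mean of all probes of a gene, and each animal left out. The first scan day with its 7 paired cattle, and the fit without the 2 middle-stage arrays of the next scan day, were chosen after seeing the data. The number of arrays and signal over background limit precision. Array slides and scan days are those of the file headers.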

Additional observations from a re-analysis of the deposited data

Results flagged for a closer look

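Of 54 sets of 9 or 8 values (the 17 genes given in full and the median level of the members, at each stage), 3 held a value far from the others by Dixon's test, and chance alone flags about 1 in 20 sets. All 3 were the middle-stage array of animal 4, which had the lowest median signal of the 27 arrays, 8.05. Its TXNDC15 level was 2.5866, with the nearest other animal at 3.3628. Its TXNDC5 level was 2.2614, with the nearest at 3.2989. Its median level over the members was 2.9447, with the nearest at 3.527. The part of the dim array in these values was not tested. Without animal 4 the first-period log2 fold change was -1.22 for TXNDC5 and 0.088 for TXNDC15, and the second-period change was 1.46 and 0.56.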

How the results depend on the processing

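Scaling moved the counts of called members, and the counts over all probes moved too. These were 6793 higher and 3193 lower in the first, 4046 and 6688 in the second and 1679 and 1340 in the total period with the array median, and stand in brackets below for each setting. In the total period the 75th percentile gave 3 lower members (1931) and a median log2 fold change of 0.017, the median of the bright probes 3 (2008) and 0.0040, the deposited log2 values 3 (1912) and 0.019, the filter on dim probes 2 lower (1313 of the fewer probes kept), and normexp 2 higher (802), 0 lower (392) and a median of 0.29. Quantile normalization gave 8 higher members in the first period (3677), 8 lower in the second (3860) and 3 lower in the total period (1086). With normexp the first-period median was -0.47 and the second-period median 0.83. Slide as a random block gave 20 higher members in the second period (2424) and 0 higher (84) and 0 lower (166) in the total period. In the first period slide as a fixed block gave 2 higher (1013) and 3 lower (225), and slide 2 alone 0 and 0 by limma, where over all probes 7 passed and 3273 had an unadjusted *P* < 0.05, with 1 early-stage array. The paired test of the study's methods gave 15 higher (2835) and 2 lower (1691) in the total period. The fit without the 2 middle-stage arrays of the next scan day, added after seeing the data, gave 11 higher in the total period (2126). The causes were not tested.

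Single genes turned sign, counted where the usual or the other fit passed. With normexp the first-period values were -0.083 for GSTO1 and -0.18 for TXNL4B, and the second-period values 0.13 for GPX1, 0.43 for GSTO1, 0.093 for GSTP1, 0.71 for MGST3 and 0.29 for TXNRD2. The value of GPX5 there, -0.11, is not read as a change, since 1 middle-stage array was above background. With slide as a fixed block the first-period values were 0.36 for GSTA3, 0.058 for GSTA4, -1.09 for GSTT4, 1.08 for MGST2 and 0.067 for PRDX5, and within slide 2 they were 0.099 for GSTA4 and 0.28 for TXNRD3. With the mean of all probes of a gene GSTM1 had a first-period value of 0.77 and a second-period value of -0.70, where its other probe lay near background. The cause was not tested for the others.

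Leaving out each animal in turn gave 14 to 16 higher and 19 to 24 lower members with medians of -0.25 to -0.13 in the first period, 29 to 32 and 12 to 15 with 0.41 to 0.53 in the second, and 5 to 9 and 0 to 1 with 0.12 to 0.17 in the total period. Over all probes these fits called 6391 to 6747 higher and 2963 to 3325 lower in the first, 3851 to 4216 and 6430 to 6659 in the second, and 1200 to 1806 and 1037 to 1356 in the total period. Without the replicate block, which treats the paired arrays as unpaired, 14 rose and 21 fell in the first period, 30 and 13 in the second and 7 and 1 in the total period, where over all probes it was 6614 and 3086, 3939 and 6541, and 1549 and 1204. Kept outlier spots left all 49, 49 and 50 measured members on the same side of the threshold. Dim middle-stage signal limits what faint probes can show.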
